A study of Homo sapiens with 8 samples.

Results

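The genes described here are the cytochrome P450s, the UDP-glucuronosyltransferases (UGTs), the glutathione S-transferases (GSTs), the sulfotransferases (SULTs) and 10 genes that work with them. They were taken from the deposited gene table by symbol, with no use of their measured values. The rule took symbols built as CYP, UGT1 or UGT2, GST or SULT names, without CYP51A1 and pseudogenes. To these it added POR, EPHX1, EPHX2, AHR, ARNT, AHRR, MAOA, MAOB, CES1 and CES2. It found 113 of the 23346 listed genes, namely 54 P450s, 19 UGTs, 17 GSTs, 13 SULTs and the 10 added genes.

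Polyadenylated RNA was sequenced from hCMEC/D3 cells. These derive from the endothelium of human brain microvessels and stand in for the blood-brain barrier in culture. All 8 libraries were replicates of this line, for which the labels name no treatment, so they formed 1 group and no conditions could be compared. The line is clonal and was immortalised with telomerase and a viral large T antigen, which limits it as a model of vessels in tissue. The labels do not say whether the replicates were separate cultures, so p-values here measure only the spread between these samples, which may be technical.

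Small lipophilic compounds are cleared from cells in steps. P450s oxidise them in the endoplasmic reticulum or in mitochondria, with electrons passed on by the reductase POR or by a ferredoxin. Epoxide hydrolases, carboxylesterases and monoamine oxidases open epoxides, split esters and deaminate amines. Transferases then attach glutathione (GST), sulfate (SULT) or glucuronic acid (UGT), and the conjugates leave through transporters. AHR, a receptor for planar aromatic ligands, enters the nucleus, pairs with ARNT and switches on CYP1 genes, and AHRR is its repressor. In brain vessels these enzymes are studied as a metabolic part of the barrier, and CYP1B1 and CYP2U1 are among the P450s known from human brain microvessels.

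Libraries held 34694272 to 45102622 read pairs, counted as halved deposited counts because every count was even. Levels are given as CPM (counts scaled to a common library size, with TMM factors) within a gene and as RPKM (CPM per kilobase of the reference transcript) between genes. A gene was called detected at 1 CPM or more in all 8 libraries. Endothelial markers were detected in 7 of 7 cases, among them CDH5 at 160 RPKM and VWF at 68.0 RPKM. Hepatocyte markers were detected in 0 of 8 cases, with a summed level of 1.37 to 2.36 CPM per library. Astrocyte markers were detected in 0 of 5 cases, with AQP4 listed at 0, and macrophage markers in 1 of 5, which was CD68. Mural cell markers were detected in 4 of 6 cases, at 3.97 RPKM for CSPG4, 3.51 for ACTA2, 2.54 for RGS5 and 1.68 for PDGFRB, with a summed list level of 45.4 to 70.4 CPM per library. Replicates 2, 7 and 8 stood apart, since long transcripts were lower and short ones higher in them. The slope of a library's log2 deviation per doubling of transcript length was -0.22, -0.10 and -0.33 in these, against 0.08 to 0.14 in the other 5. The levels and calls that these libraries move most are also given without them.

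Of the 113 genes, 28 were detected (24.8%), beside 51.3% of all genes in the table. By family, 10 of 17 GSTs, 7 of the 10 added genes, 4 of 13 SULTs, 7 of 54 P450s and 0 of 19 UGTs were detected. The median level was 0.0544 RPKM over the 113 genes and 1.39 RPKM over all genes. Among detected genes alone it was 5.45 RPKM for these enzymes and 11.4 RPKM for all genes. In the remaining 85 genes, 19 had no counts in any library. Another 9 reached 1 CPM in some library but not in all, including CYP1A1, SULT1A2, CYP27B1 and GSTO2. Just inside the threshold lay SULT1C4, with a lowest value of 1.17 CPM, and just outside lay CYP1A1, with 0.953 CPM. A gene with no counts can still have a level of up to 3 read pairs, which is 0.0665 to 0.0880 CPM per library, and 39 of the 113 genes stayed under that limit throughout. These limits cover counting error only.

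**Figure D1:**
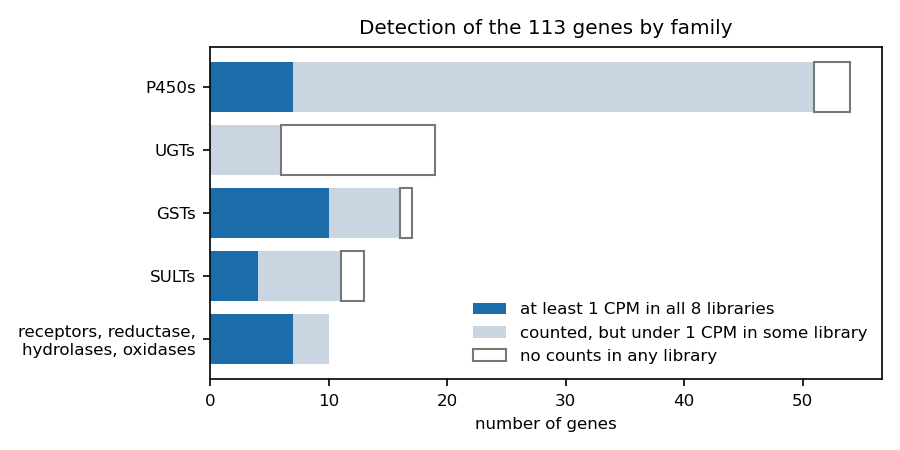
Number of genes (horizontal axis) in each of the 5 families, split into those with at least 1 CPM in all 8 libraries, those counted but under 1 CPM in some library, and those with no counts. The UGT bar has 0 detected genes and 13 with no counts, and the GST bar has 10 detected of 17.

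AHR, the ligand-binding receptor (chromosome 7, 17338276 to 17385775, 11 exons), had 17.6 ± 4.78 RPKM (SD, n = 8). Its lowest library was at 9.92 RPKM, the median at 20.0 and the highest at 21.6. The low values were those of replicates 8 and 2 (9.92 and 10.9 RPKM), and replicate 7 lay between these and the other 5 (19.4 to 21.6). Without replicates 2, 7 and 8 its mean was 20.9 ± 0.911 RPKM (SD, n = 5). AHR has a long transcript of 6243 nt, and 37.7% of its 50-base windows also occur in transcripts of other annotated genes. Once each library's trend on length and GC content was removed, the SD of its log2 level fell from 0.46 to 0.15. ARNT, its nuclear partner (chromosome 1, 150782181 to 150849244), ranged from 10.1 to 13.3 RPKM with a median of 11.6. AHR exceeded ARNT by 0.55 ± 0.40 on the log2 RPKM scale (SD, n = 8), in 6 of 8 libraries. The exact permutation test, two-sided and over sign flips of the libraries, gave p = 0.0313 (adjusted p = 0.0339). The exceptions were replicates 2 and 8. On CQN values the ratio was 0.61 and in CPM 0.96, each positive in 8 of 8 libraries (exact permutation adjusted p = 0.00868 and 0.00846, n = 8). Leaving out any 1 of replicates 1 and 3 to 7 brought the adjusted p to 0.0677, with ratios of 0.50 to 0.53.

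AHRR, the repressor that competes with AHR for ARNT (chromosome 5, 304291 to 438405), had 1.42 ± 0.224 RPKM, from 1.12 to 1.75 RPKM with a median of 1.47. AHR lay above it by 3.50 ± 0.38 (log2, SD, n = 8) in 8 of 8 libraries (exact permutation p = 0.00781, adjusted p = 0.00923). With 8 libraries 0.00781 is the smallest p this test can give, and adjustment was over the 13 gene pairs tested. For pairs in which only 1 gene was detected, the detection rule favoured the direction found, and the p-value adds little there. None of the CYP1 genes, the standard AHR targets, was detected. CYP1A1 missed the threshold only in replicates 2 and 8 (0.953 and 0.970 CPM). It had 1.94 to 2.30 CPM in replicates 1 and 3 to 7. Its share of the summed P450 level was 2.49%, beside 2.39% for CYP4V2, which was detected. CYP1A1 (chromosome 15, 75011883 to 75017877), an oxidase of polycyclic aromatic compounds, was at 0.857, 0.366, 0.745, 0.836, 0.826, 0.882, 0.851 and 0.373 RPKM in replicates 1 to 8. CYP1B1 (chromosome 2, 38294746 to 38303323), which oxidises estrogens and aromatic compounds, was at 0.107, 0.0170, 0.0703, 0.0792, 0.0994, 0.140, 0.163 and 0.00453 RPKM. Both genes were lowest in replicates 2 and 8, and their ranges did not overlap each other. CYP1B1 rests on 134 read pairs over all libraries. CYP1A2, the third member of the family, had 0.186 ± 0.0590 RPKM.

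Upstream sequence is shown for CYP1A1 and AHRR because both are textbook AHR targets with opposite roles, the first an enzyme and the second the repressor. The AHR and ARNT pair binds around the core letters GCGTG. In the 250 bases before each gene's annotated start (GRCh37), searched on both strands, 28 of the 113 genes held these letters, or 24.8%, beside 38.7% of all 21456 genes with an annotated start. CYP1A1, CYP1B1 and AHRR held them 1, 0 and 1 times. In CYP1B1 an annotated exon or the deposited gene span covers 208 of the 250 bases, and sequence farther upstream was not searched in any gene. Capitals mark the core, and letters run 5′ to 3′ on the gene's strand. The CYP1A1 stretch is chr15:75017878-75018119 on the minus strand, from 250 to 9 bases before the start. For AHRR it is chr5:321579-321828 on the plus strand, which lies inside the gene's longest listed span and holds no annotated exon.
CYP1A1: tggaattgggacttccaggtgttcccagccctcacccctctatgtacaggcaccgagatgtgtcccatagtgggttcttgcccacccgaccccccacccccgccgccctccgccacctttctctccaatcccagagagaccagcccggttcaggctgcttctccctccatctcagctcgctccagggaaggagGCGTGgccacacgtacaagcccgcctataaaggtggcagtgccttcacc
AHRR: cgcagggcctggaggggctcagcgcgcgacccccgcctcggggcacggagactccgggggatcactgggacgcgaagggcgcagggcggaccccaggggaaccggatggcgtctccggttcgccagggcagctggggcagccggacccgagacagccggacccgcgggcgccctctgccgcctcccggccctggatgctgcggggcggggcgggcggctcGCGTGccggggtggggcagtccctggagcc
In CYP1A1 the core begins 57 bases before the start and in AHRR 30 bases before it. The AHRR stretch holds 31 CpG pairs and counts as CpG-rich (at least 50% GC and an observed to expected CpG ratio of at least 0.6), whereas the CYP1A1 stretch holds 10 and does not. The letters GCGTG contain a CpG pair, and 28.3% of the windows of the 113 genes were CpG-rich, beside 58.6% of all windows. The part of CpG content in the share of windows with the core was not tested.

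Genes around AHR were examined from fixed lists. Of 5 AHR partners, 4 were detected, led by the chaperones HSP90AB1 (379 ± 28.8 RPKM, SD, n = 8) and HSP90AA1 (308 ± 43.8 RPKM) and the cochaperone PTGES3 (263 ± 9.90 RPKM). ARNT2, a relative of ARNT known from neurons, had 0.0237 RPKM and was not detected. Of 4 AHR targets outside the enzyme families, 3 were detected. These were NQO1, a quinone reductase also driven by NRF2, at 155 ± 33.7 RPKM, TIPARP at 28.4 ± 9.98 RPKM and the retinaldehyde dehydrogenase ALDH1A3 at 6.70 ± 1.54 RPKM. ALDH3A1 had 0.0799 RPKM. Among 5 other receptors that sense drugs and lipids, the glucocorticoid receptor NR3C1 (17.1 ± 5.40 RPKM), RXRA (13.9 ± 1.96 RPKM) and PPARA (1.29 ± 0.377 RPKM) were detected. NR1I2 (PXR) and NR1I3 (CAR), the main inducers of liver P450s, had 0.157 and 0.294 RPKM and were not.

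POR, the reductase that supplies electrons to all P450s of the endoplasmic reticulum (chromosome 7, 75544420 to 75616173), had 21.6 ± 3.47 RPKM (SD, n = 8). It ranged from 18.8 to 27.7 RPKM with a median of 19.7, highest in replicates 8 and 2. The 54 P450s together summed to 29.6 ± 3.02 RPKM, so that POR amounted to 0.728 ± 0.0834 of their summed level, from 0.615 to 0.877 between libraries. That sum includes mitochondrial P450s such as CYP27A1, which took 20.5% of it, so the ratio is not limited to enzymes that POR serves. All 7 other P450 redox partners on the list were detected. CYB5R3, a cytochrome b5 reductase, led with 88.7 ± 19.6 RPKM, followed by PGRMC1 (45.3 ± 2.42 RPKM) and the mitochondrial cytochrome b5 CYB5B (43.0 ± 2.08 RPKM).

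The P450s with the highest levels encode enzymes outside the main drug-oxidising set of the liver. CYP27A1, the mitochondrial sterol 27-hydroxylase (chromosome 2, 219646472 to 219680016), had 6.20 ± 2.49 RPKM, lowest 4.18, median 5.10 and highest 10.5. Replicates 8 and 2 (10.5 and 9.83 RPKM) were high and the other 6 lay between 4.18 and 5.39. CYP2U1, a fatty acid hydroxylase (chromosome 4, 108852717 to 108874613), had 5.75 ± 1.17 RPKM, lowest 4.23, median 6.18 and highest 7.44. Its low values were in replicates 2, 8 and 7 (4.23, 4.33 and 4.73 RPKM), so CYP27A1 and CYP2U1 changed places between libraries. CYP20A1, an orphan P450 with no settled substrate (chromosome 2, 204103164 to 204170563), had 4.71 ± 0.649 RPKM, from 4.13 to 6.01 with a median of 4.49. CYP4X1, which can oxidise the endocannabinoid anandamide (chromosome 1, 47489240 to 47516423), had 4.30 ± 1.19 RPKM, from 2.72 to 5.88 with a median of 4.30. CYP2S1, an extrahepatic oxidase (chromosome 19, 41699115 to 41713444), had 2.43 ± 0.393 RPKM, from 2.04 to 3.17 with a median of 2.32.

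The order of the leading 4 was not resolved over all libraries, since neighbouring ranges overlapped. Without replicates 2, 7 and 8, CYP2U1 led with 6.59 ± 0.508 RPKM (SD, n = 5), above CYP27A1 at 4.81 ± 0.399, CYP20A1 at 4.33 ± 0.165 and CYP4X1 at 4.07 ± 1.14 RPKM. The ranges of CYP2U1 and CYP27A1 did not overlap in these 5 libraries. As shares of the summed P450 level over all 8, CYP27A1, CYP2U1, CYP20A1, CYP4X1 and CYP2S1 took 20.5%, 19.7%, 15.9%, 14.3% and 8.17%. The order also depended on the scale. In CPM, without length, CYP20A1 led with 49.7, ahead of CYP2U1 (27.4) and CYP27A1 (11.8), and its annotated transcript is 10552 nt long. By the mean of the authors' CQN log2 values, CYP20A1 (5.35 ± 0.69) again stood before CYP2U1 (4.97 ± 0.08) and CYP27A1 (4.51 ± 0.23). In replicates 1, 3, 4 and 6, however, CYP20A1 (4.80 to 4.87) lay below CYP2U1 (4.90 to 5.13) on this scale. Its highest CQN values were in replicates 8, 2 and 7 (6.54, 6.09 and 5.82). CYP2S1 lay below CYP2U1 by -1.20 ± 0.48 (log2 RPKM) in 8 of 8 libraries (exact permutation p = 0.00781, adjusted p = 0.00923, n = 8). CYP1B1 lay below CYP2U1 by -5.02 ± 0.38 and below POR by 6.92 ± 0.64 (log2 of POR over CYP1B1), both in 8 of 8 libraries with the same p and adjusted p in the exact permutation test (n = 8).

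The remaining detected P450s were CYP2R1, the vitamin D 25-hydroxylase, at 0.789 ± 0.234 RPKM, and CYP4V2, an ocular fatty acid hydroxylase, at 0.697 ± 0.110 RPKM. CYP27B1, which makes the active hormone from the product of CYP2R1, had 0.400 ± 0.121 RPKM and was not detected. CYP2R1 lay above it by 0.82 ± 0.55 (log2) in 8 of 8 libraries, although by 0.05 in the closest (exact permutation adjusted p = 0.00923, n = 8). In CPM (0.81) and on CQN values (0.94) it lay above in 7 of 8 libraries (exact permutation adjusted p = 0.0156 in each, n = 8). CYP24A1, the enzyme that breaks the hormone down, had 0.226 ± 0.115 RPKM. Grouped by role, 2 of 22 genes in families 1 to 3, 2 of 12 in family 4, 1 of 6 for sterols and bile acids, 1 of 7 for vitamin D and retinoids, and 0 of 6 for steroid hormone synthesis were detected.

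None of the main liver drug oxidases reached 1 CPM in all libraries. For CYP2B6 this rests on replicates 2, 7 and 8, at 0.820, 0.779 and 0.520 CPM. It had 1.01 to 1.23 CPM in replicates 1 and 3 to 6. CYP2D6 had 0.346 ± 0.126 RPKM, CYP2B6 0.313 ± 0.0771, CYP3A5 0.217 ± 0.119 and CYP2E1 0.156 ± 0.0513 RPKM (SD, n = 8). Of CYP2D6, 41.2% of the 50-base windows also occur in its pseudogene relatives, so its reads could be split. Several others were close to the counting limit. CYP3A4, the most used drug oxidase of the liver, had 6 counts in all, which is 3 read pairs over 8 libraries, and no counts in 5 of them. CYP2C8 and CYP2C19 had 12 and 6 counts in all. In CYP26B1 and CYP26A1, which degrade retinoic acid, levels were 0.0579 and 0.116 RPKM, and the pair was left out of the 13 tested because neither was detected.

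CYP2U1 is shown as an example of a detected P450 with a CpG-rich start. The stretch is chr4:108852455-108852704 (GRCh37, plus strand), the 250 bases before the annotated start. Capitals mark GC boxes (GGGCGG on either strand, the letters bound by SP1 and its relatives), which 55.4% of all 250-base windows hold.
CYP2U1: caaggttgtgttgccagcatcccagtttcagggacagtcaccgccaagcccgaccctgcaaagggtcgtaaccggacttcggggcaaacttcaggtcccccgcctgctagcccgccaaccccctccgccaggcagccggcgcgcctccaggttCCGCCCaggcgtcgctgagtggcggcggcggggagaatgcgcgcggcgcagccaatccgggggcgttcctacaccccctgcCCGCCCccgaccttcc
It holds 2 GC boxes, 16 and 97 bases before the start, and 25 CpG pairs. Among the 28 detected genes 18 had a CpG-rich window (64.3%), against 14 of the 85 not detected (16.5%). The same shares over all genes were 82.4% of those detected and 30.5% of those not detected. Windows covered by transcribed sequence were kept in these counts. In MAOA, CES2 and GSTO2 an annotated exon or the deposited gene span covered all 250 bases.

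**Figure D2:**
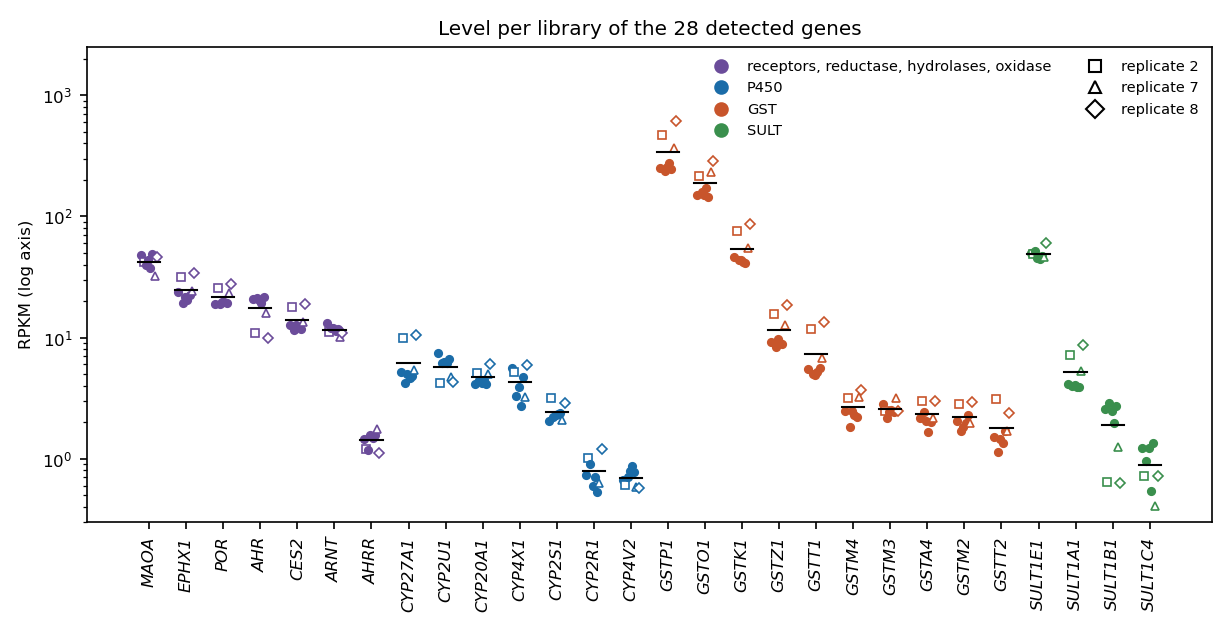
RPKM (log axis) of the 28 detected genes in each of the 8 libraries, grouped by family and ordered by mean. Lines are means, and open symbols mark replicates 2, 7 and 8. GSTP1 lies highest, from 238 to 610 RPKM, and replicates 2 and 8 lie at the top for most GSTs and at the bottom for AHR and SULT1B1.

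Among the hydrolases, each pair had a high and a near-silent gene. EPHX1, the microsomal epoxide hydrolase (chromosome 1, 225997797 to 226033262), had 24.7 ± 5.37 RPKM, lowest 19.3, median 23.1 and highest 34.4 (SD, n = 8). EPHX2, the soluble epoxide hydrolase that degrades epoxides of arachidonic acid, had 0.0567 ± 0.0203 RPKM, from 0.0351 to 0.0992 with a median of 0.0508. EPHX1 exceeded EPHX2 by 7.29 ± 0.34 (log2) in 8 of 8 libraries (exact permutation p = 0.00781, adjusted p = 0.00923, n = 8). CES2, a carboxylesterase of intestine and other tissues (chromosome 16, 66968347 to 66978994), had 13.9 ± 2.89 RPKM, lowest 11.5, median 12.7 and highest 19.0. CES1, the liver form, had 0.194 ± 0.0776 RPKM, lowest 0.0533, median 0.192 and highest 0.304. CES2 exceeded CES1 by 5.60 ± 0.33 (log2) in 8 of 8 libraries with the same exact permutation p-values (n = 8). Ratios against a gene under 1 RPKM depend on the constant added to both levels. With 1 RPKM in place of 0.1 RPKM, EPHX1 over EPHX2 was 4.58, CES2 over CES1 3.62, POR over CYP1B1 4.37, CYP1B1 over CYP2U1 -2.62 and CYP2R1 over CYP27B1 0.35. In CES1, 45.8% of the 50-base windows also occur in its pseudogenes, so its level is uncertain.

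MAOA, which deaminates serotonin and noradrenaline (chromosome X, 43515409 to 43606068, 15 exons), had 42.2 ± 5.60 RPKM, lowest 32.4, median 42.6 and highest 48.6 (SD, n = 8). Its neighbour MAOB, which prefers phenylethylamine, was at 0.0114 RPKM in replicate 1 and had no counts in the other 7 libraries. That is 1 read pair against 51429 for MAOA. The ratio of pooled read pairs per length was 33623, with an exact 95% interval for counting error of 6034 to 1328070. Every library agreed in direction (log2 ratio 8.69 ± 0.18, exact permutation adjusted p = 0.00923, n = 8), but this value is set by the added constant of 0.1 RPKM and was 11.89 with 0.01.

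The sequence before MAOB is shown because its near absence of reads stands beside a start rich in GC boxes. The stretch is chrX:43741722-43741946 (GRCh37, minus strand), from 250 to 26 bases before the annotated start, and capitals mark GC boxes on either strand.
MAOB: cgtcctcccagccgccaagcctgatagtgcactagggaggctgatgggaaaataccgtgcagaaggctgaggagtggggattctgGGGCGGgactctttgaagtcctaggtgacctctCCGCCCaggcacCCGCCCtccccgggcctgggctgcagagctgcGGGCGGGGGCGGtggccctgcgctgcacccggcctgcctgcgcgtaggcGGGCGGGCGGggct
The 250-base window before MAOB held 7 GC boxes, which lie 35 to 165 bases before the start, and 21 CpG pairs, and it counted as CpG-rich. The window before MAOA held 4 GC boxes and 17 CpG pairs and was also CpG-rich. However, an annotated exon covers all 250 bases of the MAOA window, against 25 covered bases before MAOB. By these counts alone, a window of the same class stood at the gene with 1 read pair and at the gene with 51429.

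The GSTs gave the highest signal of all these families, with a summed level of 612 ± 211 RPKM (SD, n = 8). GSTP1, the pi class transferase of most extrahepatic tissues (chromosome 11, 67351066 to 67354124, 7 exons), had 339 ± 136 RPKM, lowest 238, median 264 and highest 610. GSTO1, an omega class enzyme that reduces dehydroascorbate and arsenic species (chromosome 10, 106013952 to 106027222), had 188 ± 51.2 RPKM, lowest 145, median 165 and highest 287. GSTK1, the mitochondrial and peroxisomal kappa class enzyme (chromosome 7, 142960522 to 142966222), had 54.1 ± 17.4 RPKM, lowest 41.5, median 44.8 and highest 86.9. Without replicates 2, 7 and 8 the means were 254 ± 14.3, 156 ± 9.91 and 43.5 ± 1.56 RPKM (SD, n = 5). These genes were highest in replicate 8, followed by replicate 2 for GSTP1 and GSTK1 and by replicate 7 for GSTO1. Together they took 54.6%, 31.4% and 8.92% of the summed GST level.

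GSTZ1, which acts in tyrosine breakdown (chromosome 14, 77787230 to 77797940), had 11.5 ± 3.74 RPKM, lowest 8.31, median 9.47 and highest 18.4. GSTT1, a theta class enzyme (chromosome 22, 24376139 to 24384284), had 7.27 ± 3.37 RPKM, lowest 4.90, median 5.53 and highest 13.5. In both, replicates 8, 2 and 7 held the 3 highest values. The other detected GSTs were GSTM4, GSTM3, GSTA4, GSTM2 and GSTT2, with means of 2.68, 2.56, 2.32, 2.20 and 1.79 RPKM. GSTT2 shares 81.7% of its 50-base windows with GSTT2B and GSTM2 shares 46.1%, chiefly with GSTM1 and GSTM4, so their levels are uncertain. GSTA1, the abundant alpha class form of the liver, had 2 counts in all, which is 1 read pair.

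GSTP1 exceeded GSTO1 by 0.80 ± 0.19 (log2 RPKM, SD, n = 8) in 8 of 8 libraries (exact permutation p = 0.00781, adjusted p = 0.00923). With the length of the longest annotated transcript the ratio was -0.007 (exact permutation adjusted p = 0.930, n = 8), so the order rests on which transcript is taken. On the authors' CQN values it was 0.81. GSTO2, the neighbour of GSTO1 and its close relative, was not detected at 0.152 ± 0.0217 RPKM. GSTO1 lay above it by 9.51 ± 0.30 (log2) in 8 of 8 libraries (exact permutation adjusted p = 0.00923, n = 8), and by 7.07 without length correction. GSTM3, a mu class form of brain and testis, and GSTM4 differed by -0.04 ± 0.28 (log2), with 4 of 8 libraries on either side (exact permutation p = 0.711, adjusted p = 0.711, n = 8). In CPM, with no length correction, GSTM3 was the higher by 1.50 and on CQN values by 0.83, so the order of this pair depends on the length used.

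**Figure D3:**
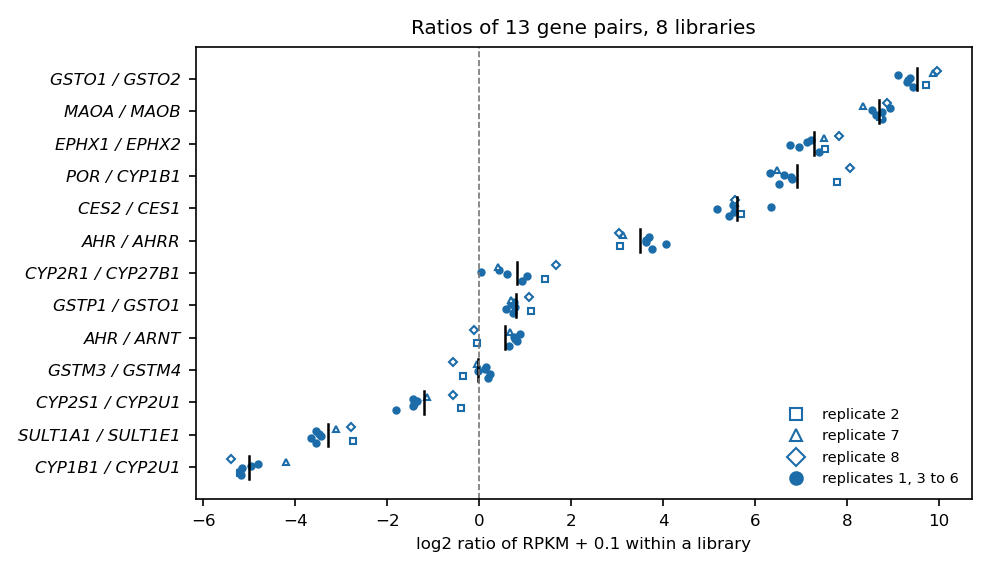
log2 ratio of RPKM + 0.1 (horizontal axis) for 13 gene pairs, with 1 point per library, the mean as a vertical line and open symbols for replicates 2, 7 and 8. Points of 11 pairs lie on 1 side of 0, whereas AHR/ARNT has 2 points below 0 and GSTM3/GSTM4 has 4 on either side.

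SULT1E1, the estrogen sulfotransferase (chromosome 4, 70706930 to 70725870, 8 exons), dominated the sulfotransferases. It had 49.4 ± 5.11 RPKM, lowest 44.6, median 47.9 and highest 60.4 (SD, n = 8), and took 84.2% of the summed SULT level. Replicate 8 was high and the other 7 lay between 44.6 and 52.0 RPKM. The level equals 87.5 CPM. Of its 50-base windows, 23.7% also occur in 1 other annotated gene. SULT1A1, the main phenol sulfotransferase (chromosome 16, 28616908 to 28634907), had 5.15 ± 1.81 RPKM, lowest 3.91, median 4.12 and highest 8.65. It lay below SULT1E1 by -3.30 ± 0.36 (log2) in 8 of 8 libraries (exact permutation p = 0.00781, adjusted p = 0.00923, n = 8). With the longest annotated transcripts the ratio was -5.52. SULT1A1 shares 78.4% of its windows with its near copies SULT1A3 and SULT1A4 and others, which had no counts at all and share 99.2% and 99.1%, so reads of this group cannot be assigned with certainty.

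SULT1B1, which sulfates thyroid hormones (chromosome 4, 70592686 to 70626430), lies next to SULT1E1. It was at 2.57, 0.644, 2.90, 2.49, 1.98, 2.73, 1.25 and 0.634 RPKM in replicates 1 to 8. Replicates 8, 2 and 7 were low and the other 5 were 1.98 RPKM or more. SULT1C4, a form known from fetal tissue, had 0.894 ± 0.349 RPKM, lowest in replicates 7 and 5 (0.410 and 0.546). SULT2A1, the liver enzyme for steroid hormones, had 0.147 ± 0.0335 RPKM and was not detected.

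SULT1E1 is shown because its start lacks the CpG pairs that precede most detected genes. The stretch is chr4:70725871-70726113 (GRCh37, minus strand), from 250 to 8 bases before the annotated start, and capitals mark the letters TATAAA.
SULT1E1: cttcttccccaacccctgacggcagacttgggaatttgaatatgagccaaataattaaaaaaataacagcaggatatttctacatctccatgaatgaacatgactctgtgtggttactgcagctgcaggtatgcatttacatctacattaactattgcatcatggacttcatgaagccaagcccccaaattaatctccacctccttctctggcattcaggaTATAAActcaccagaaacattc
The full 250-base window held 1 CpG pair, a GC content of 40.8% and TATAAA 29 bases before the start. The window before SULT1B1 held 0 CpG pairs and, in a search of both strands, the same letters. There the letters were not found in the part from 250 to 93 bases before the start. The 92 bases next to the start lie inside the deposited gene span. TATAAA on either strand was found in 4.74% of the windows of all detected genes, in 5 of the 28 detected enzymes (17.9%) and in 9.55% of all windows. Among the 85 enzymes not detected it was more common, in 28 (32.9%), beside 15.3% of all genes not detected.

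No UGT was detected. Of the 19 UGT1 and UGT2 genes, 13 had no counts in any library, and their summed level was 0.166 to 0.470 CPM per library. UGT2A1, known from nasal epithelium, was highest at 0.0901 ± 0.0418 RPKM, with a lowest value of 0.0178, a median of 0.0933 and a highest of 0.155 RPKM. UGT2B15, an androgen-conjugating form, followed with 0.0287 ± 0.0254 RPKM, from no counts in replicate 5 to 0.0774 RPKM. UGT1A1, the bilirubin-conjugating form, had 4 counts, all in replicate 6, and UGT2B7 had 2 counts in all. UGT1A6, the phenol form often studied in brain endothelium, had no counts. The 9 UGT1A genes share their last exons, and 59.7% to 77.1% of their 50-base windows occur in other genes, and how reads over shared exons were counted is not given in the sources used here. The levels of these 9 genes are uncertain to that extent.

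The enzymes that make the donor molecules were all present, whether or not the transferase was. Of 8 genes in the supply list all were detected, with a median of 29.2 RPKM. PAPSS2 and PAPSS1, which make the sulfate donor, had 44.2 ± 5.36 and 29.0 ± 3.45 RPKM. UGP2 (44.0 ± 3.01 RPKM) and UGDH (18.5 ± 3.65 RPKM), which make UDP-glucuronic acid and serve other pathways too, stood beside 0 detected UGT1 or UGT2 genes. GSS, the glutathione synthetase, had 42.3 ± 6.80 RPKM.

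Of 15 other oxidising and reducing enzymes 8 were detected, led by the aldose reductase AKR1B1 (296 ± 69.7 RPKM), ADH5 (45.2 ± 2.61 RPKM) and AKR1A1 (44.4 ± 11.8 RPKM). AKR1C1 and AKR1C3, which reduce steroids and other carbonyls, were among the 7 that were not, at 0.00501 and 0.201 RPKM. Of 12 other conjugating enzymes and hydrolases 9 were detected, led by the microsomal transferases MGST2 (76.3 ± 25.2 RPKM) and MGST3 (65.1 ± 13.3 RPKM). NAT2 (0.0362 RPKM), EPHX3 (0.0757 RPKM) and HNMT (0.121 RPKM) were not.

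Variation between replicates was tested for the 28 detected genes in a fit over all 11980 detected genes using the goodness-of-fit test of edgeR, which sets each gene against the dispersion at its abundance. SULT1B1 alone varied more than that trend (1 of 28, or 3.57%, beside 4.66% of all detected genes). It ranged from 4.45 to 20.4 CPM, with an edgeR adjusted p of 0.000547, and 5 of the 28 had an unadjusted p under 0.05. Without replicates 2, 7 and 8, SULT1B1 no longer passed (edgeR adjusted p = 0.710), so its call rests on those libraries. In that smaller set CYP4X1 (adjusted p = 0.00285) and SULT1C4 (adjusted p = 0.00842) passed, of 31 genes detected there, beside 2.42% of all genes. Against the dispersion trend fitted by DESeq2, 10 of the 28 passed beside 23.5% of all genes, among them AHR, CYP27A1, GSTP1 and SULT1A1. FDXR, the mitochondrial ferredoxin reductase, was the single gene of the 7 pathway lists to pass in the fit of all libraries (edgeR adjusted p = 0.00642). It no longer passed without replicates 2, 7 and 8 (adjusted p = 1.00) or with the length and GC trend removed (adjusted p = 0.379). TIPARP passed in both of those settings (edgeR adjusted p = 0.000124 and 0.00808).

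The direction of the spread followed the libraries. Of the 28 genes, 19 (67.9%) were highest in replicate 2 or 8, beside 45.2% of all detected genes, and their median transcript length was 1635 nt. Another 5 (17.9%, beside 39% of all) were lowest in replicate 2 or 8, with a median length of 5661 nt. With each library's trend on length and GC content removed, 14 of 28 genes were still highest in replicate 2 or 8, beside 39.7% of all. The number lowest in replicate 2 or 8 stayed at 5 of 28, beside 36.5% of all. On the authors' CQN values, 17 of 28 were highest in replicate 2 or 8, beside 40.97% of all. On these values 4 of 28 were lowest there, beside 34.99% of all. The trend removal lowered the SD of the log2 level of GSTP1 from 0.51 to 0.06. CYP20A1 moved the other way, from 0.19 to 0.60, and passed the test after this removal (edgeR adjusted p = 2.48e-08), as did SULT1B1 (adjusted p = 0.0296), beside 6.58% of all genes. Its SD on the authors' CQN values, which are adjusted for the same properties, was 0.69. The part of library length bias in these differences was not tested beyond this removal.

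**Figure D4:**
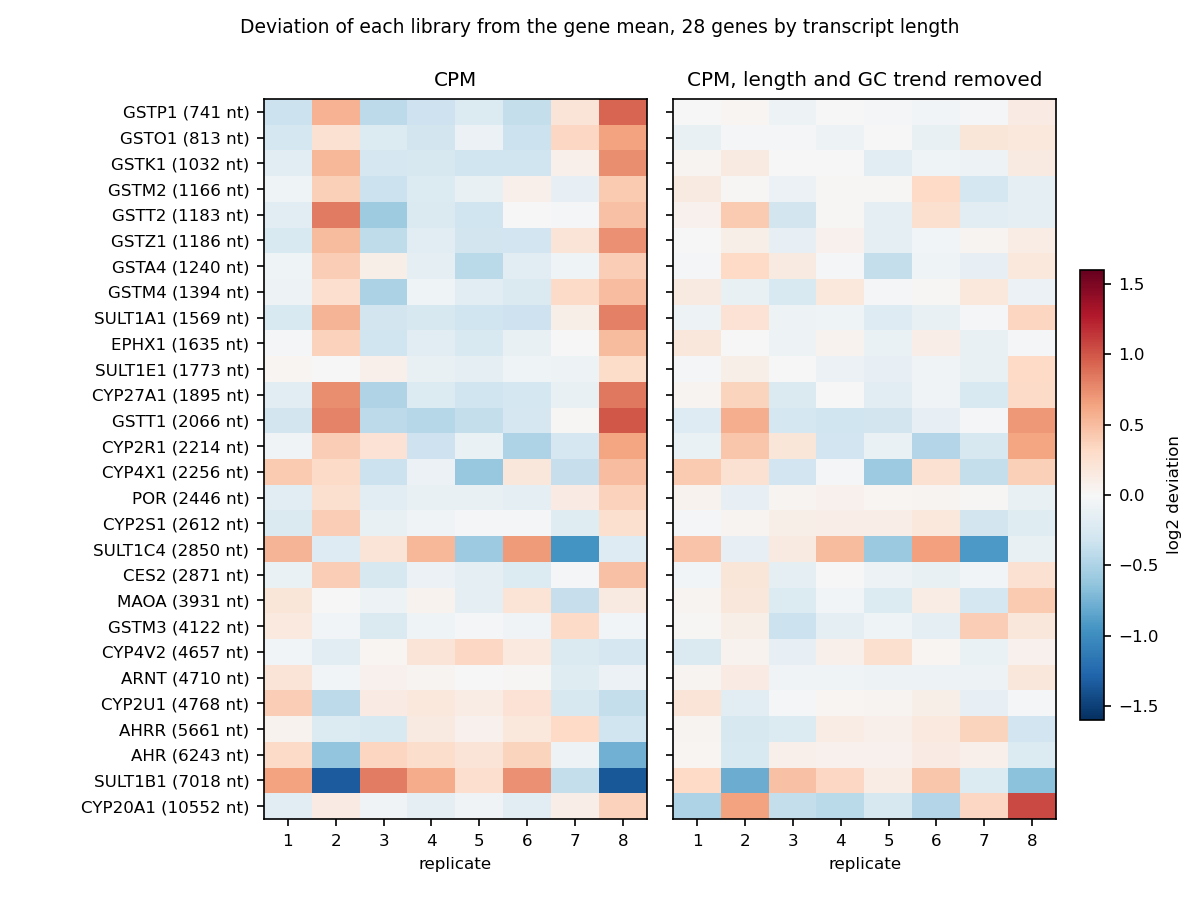
Deviation of each library (columns) from the gene mean on the log2 CPM scale for 28 detected genes (rows, shortest transcript at the top), as counted and with the length and GC trend removed. Replicates 2 and 8 are high for short and low for most long transcripts on the left, and CYP20A1, the longest, turns high in them on the right.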

How the data were processed

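Polyadenylated RNA of 8 hCMEC/D3 replicates was turned into libraries by Illumina's TruSeq kit (version 2), per the labels' protocols. The submitters' processing notes name CASAVA 1.9, TopHat2 2.0.6, HTSeq and the build hg19 (GRCh37), with no role or order. The strand setting, the gene annotation and the counting of reads shared between genes are not given in the sources used here. The authors deposited whole-number counts per gene, which are raw per the file headers, and values normalised by conditional quantile normalisation (CQN), per the file headers. The deposited CQN values were judged to be on a log2 scale from their range. All 186768 deposited counts were even, with 0 odd, so counting error was taken from halved counts. Depth was 34694272 to 45102622 read pairs per library, so counting error was small for all but the lowest genes. All 16 per-sample columns were matched by replicate number.

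CPM values were computed with TMM-scaled library sizes (edgeR 4.0.16, R 4.3.3). RPKM values used the length of the canonical transcript in GENCODE on GRCh37, matched for 113 of 113 genes here, for 21456 in all and for 97.1% of the detected genes. Gene positions are the deposited ones, printed 1-based. Variation was tested with an intercept-only edgeR model and the goodness-of-fit test, with the trended dispersion and an adjusted p-value under 0.05 (Benjamini-Hochberg) over all detected genes; a test between groups did not apply to 1 group. On simulated counts of the 11980 detected genes it called 0 genes with none changed, and it recovered 87.5% of 200 genes raised 4-fold and 100% of 200 raised 8-fold in 1 library. Each changed gene was raised in 1 random library, so these rates do not cover a shift shared by several libraries. Ratios of gene pairs were taken on log2(RPKM + 0.1) and tested by exact two-sided sign-flip permutation over 256 sign patterns. Of 16 listed pairs 13 were tested, those with a detected gene. In pairs with only 1 detected gene, this filter itself favoured the direction found, so their p-values lend it little weight. These pairs were MAOA/MAOB, EPHX1/EPHX2, CES2/CES1, GSTO1/GSTO2, POR/CYP1B1, CYP1B1/CYP2U1 and CYP2R1/CYP27B1. Exact Poisson-based 95% intervals and limits cover counting error only. Upstream windows came from the GRCh37 genome, 250 bases before the start of the canonical transcript, and printed stretches leave out bases next to the start that an annotated exon covers or that the edge of the deposited gene span reaches. The AHRR stretch lies wholly inside the deposited span and was kept, since no annotated exon covers it. Repeated sequence was counted as 50-base windows of a gene's transcript found in transcripts of other genes.

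The genes, lists, pairs and tests were chosen with earlier results of these data known. The named genes are the 10 added genes, every detected enzyme, the genes of the pairs, the main liver drug enzymes, and the 3 highest and the few undetected genes of each list. A few further genes (CYP24A1, UGT2A1, UGT2B15, UGT8, CYP26A1, CYP26B1, SULT1A3 and SULT1A4) are named for their place in a pathway or family or as the highest of it. A few genes that this rule names are not reported here. Alternatives were other scalings (DESeq2 1.42.0 size factors, no TMM factor), other detection rules, other lengths, constants and dispersion trends, and leaving out libraries.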

Additional observations from a re-analysis of the deposited data

Results flagged for a closer look

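Of 41 values and ratios checked for a library far from the others, 2 passed the limit of 0.526 for the gap to the nearest library over the whole range, and chance gives about 1 in 20. SULT1E1 was highest in replicate 8 at 60.4 RPKM, with the next library at 52.0 and the lowest at 44.6 RPKM. The log2 ratio of CES2 over CES1 was highest in replicate 5 at 6.33, with the next at 5.68 and the lowest at 5.18. CES1 was lowest in that library, at 0.0533 RPKM, which is 4 read pairs.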

How the results depend on the processing

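The number of detected genes was 28 with DESeq2 size factors, with no TMM factor, with an RPKM of at least 0.5 in all libraries and without any 1 library. It was 31 without replicates 2, 7 and 8, 32 with a mean CPM of at least 1, and 48 with at least 10 counts in every library. The number above the variation trend was 1 with other scalings and with halved counts. It was 10 with the DESeq2 trend, 2 with the length and GC trend removed, 2 with no filter on low genes (CYP1B1 and SULT1B1), and 2 without replicates 2, 7 and 8. Leaving out 1 library gave 1 to 2, with SULT1C4 added without replicate 8.

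GSTM3 over GSTM4 changed sign in CPM (1.50), on CQN values (0.83), with the longest transcript (1.38) and without replicates 2, 7 and 8 (0.13), and leaving out 1 library gave -0.0765 to 0.0366. GSTP1 over GSTO1 was -0.0070 with the longest transcript. AHR over ARNT was 0.50 to 0.64 with 1 library left out, with an adjusted p of 0.0677 in the exact permutation test in 6 of the 8 cases, and positive in 8 of 8 libraries in CPM and on CQN values. Without replicates 2, 7 and 8 no ratio could pass, since the smallest exact permutation p with 5 libraries is 0.0625 and its adjusted value 0.0677. The 12 other ratios kept their direction there. AHR over ARNT was 0.78, AHR over AHRR 3.75, POR over CYP1B1 6.62, CYP1B1 over CYP2U1 -5.07, CYP2S1 over CYP2U1 -1.50 and CYP2R1 over CYP27B1 0.61. EPHX1 over EPHX2 was 7.10, MAOA over MAOB 8.74, CES2 over CES1 5.60, GSTP1 over GSTO1 0.71, GSTO1 over GSTO2 9.32 and SULT1A1 over SULT1E1 -3.54. With pairs of undetected genes included, CYP1B1 lay below CYP1A1 by -2.15 in 8 of 8 libraries (exact permutation adjusted p = 0.0104, n = 8), and CYP26B1 below CYP26A1 by -0.41 in 7 of 8 (exact permutation p = 0.0703, adjusted p = 0.0804, n = 8). The cause of these changes was not tested. CQN values were not used for the pairs with EPHX2, MAOB and CES1, which have none. No paired analysis was possible because all libraries belong to 1 group.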
